A study of Mus musculus with 4 samples.

Results

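EBF1 (early B-cell factor 1) is a transcription factor that B-lineage progenitors need in order to become B cells. It binds DNA as a dimer, through a zinc-containing DNA-binding domain, at a short palindromic site. In pro-B cells it is known for opening chromatin at B-lineage genes and for switching them on together with Pax5 and E2A. The mutant EBF1-H240A has an alanine in place of a histidine.

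Occupancy of both proteins was mapped by chromatin immunoprecipitation and sequencing (ChIP-seq) in C57BL/6 mouse pro-B cells transformed by A-MuLV (Abelson murine leukemia virus). The cells of both groups carry floxed Ebf1 alleles and the tamoxifen-dependent recombinase RERTCre. A retroviral vector that also encodes GFP supplied either EBF1-wt or EBF1-H240A. From 24 h after transduction, 4-hydroxytamoxifen at 2 μM was used in both groups to delete the cells' own Ebf1. GFP-positive cells were sorted, and the culture time given for both groups is 5 days. Both maps therefore come from a transformed line with a retrovirally supplied protein, and how much endogenous EBF1 remained is not measured by the peak lists. The identity of the cells could not be checked against marker genes, since no expression was measured. Each protein had 1 ChIP library and 1 input, so none of the values below has a replicate check, and no difference was tested.

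The sites described here are those at which the signal of the mutant, relative to that of the wild-type protein, was near the middle of all shared sites. EBF1-wt and EBF1-H240A peaks with at least 1 bp in common were paired 1 to 1 on chromosomes 1 to 19 and X, which gave 2242 pairs. For each pair, the coverage at the EBF1-H240A summit (the pileup) was divided by that at the EBF1-wt summit. The 1120 pairs (50.0%) with a ratio strictly between the 25th percentile, 0.533, and the 75th, 0.886, are the mid-ratio sites. They were thus chosen by the measured summit pileups, and the share is fixed by the rule. The mid-ratio sites take up 25.3% of the 4422 EBF1-wt peaks and 40.6% of the 2759 EBF1-H240A peaks. The remaining pairs were 561 below this band and 561 above it.

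Even occupancy here is relative and does not mean equal fragment numbers. In the EBF1-wt list each sequenced fragment counts 0.635 in the pileup, and in the EBF1-H240A list it counts 1. In fragments, the band ran from 0.338 to 0.562 EBF1-H240A fragments per EBF1-wt fragment. With that upper end, all 1120 mid-ratio sites had to have fewer EBF1-H240A than EBF1-wt fragments. Over all 2242 pairs, 51 had more. The lowest local background was 1.32 fragments in the EBF1-H240A list and 2.97 in the EBF1-wt list, a ratio of 0.443, which lies inside the band. Read totals were not given in the sources used here. This ratio stands in for relative depth only if the peak caller used 1 genome size and 1 fragment length for both lists. Whether it did is not known, and the shortest peaks differed, at 190 bp (EBF1-wt) and 228 bp (EBF1-H240A).

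Mid-ratio sites ran from barely called peaks to tall peaks of both proteins. They were 5 of the 20 pairs tallest for EBF1-wt, a smaller share than the 50.0% of all pairs that the rule sets. The highest numbers over all pairs were 322 (EBF1-wt) and 320 (EBF1-H240A) fragments. At the mid-ratio sites, EBF1-wt had 24 fragments at the lowest, a median of 69 (quartiles 47 and 111) and 279 at the highest. EBF1-H240A had 12, a median of 29.5 (20 and 48) and 140. Both distributions therefore covered more than a 10-fold range, and the heights of the proteins rose together from site to site. Spearman's rho between the fragment numbers was 0.96 over the 1120 sites and 0.72 over all 2242 pairs, but a band on the ratio forces a high value. The authors' −log10 q-value was at least 10 in both lists at 871 sites (77.8%), against 73.4% of all pairs, and the lowest values were 3.30 (EBF1-wt) and 2.66 (EBF1-H240A).

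**Figure D1:**
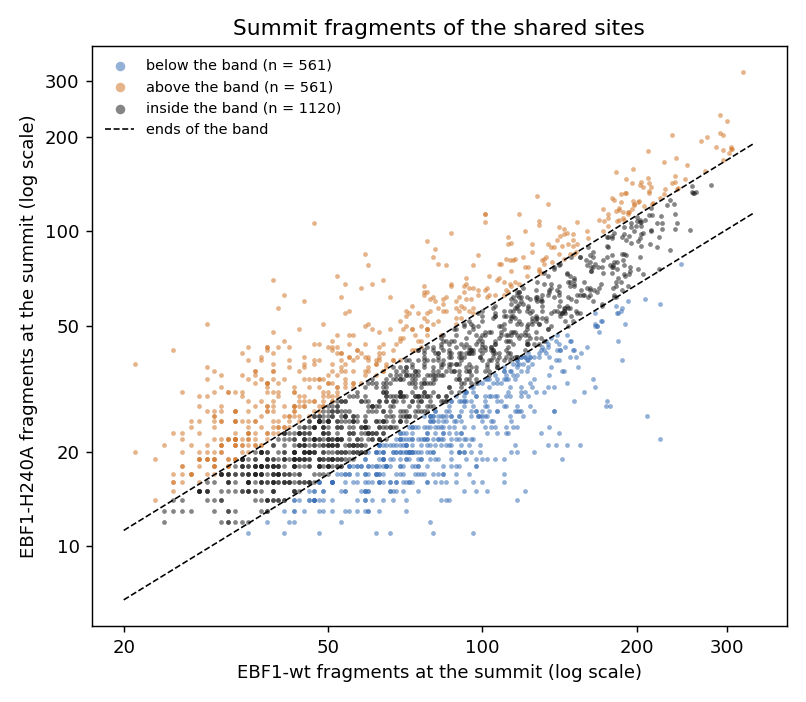
EBF1-wt (x axis) and EBF1-H240A (y axis) fragments at the summits of all 2242 shared sites, both on log scales, with 1 point per site. The 1120 sites inside the band lie between the dashed lines at 0.338 and 0.562 fragments per EBF1-wt fragment, from 24 to 279 EBF1-wt fragments.

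The 8 mid-ratio sites with the most fragments (mm9 positions of the EBF1-wt peaks) were high for both proteins. The site at chr9:21069387-21069910 had 279 EBF1-wt fragments (exact 95% Poisson interval 247 to 314) and 140 EBF1-H240A fragments (118 to 165). At chr2:25052047-25052532 the numbers were 256 and 139. The site at chr17:63357551-63358022 had 261 and 133 fragments, and that at chr17:45570589-45571213 had 259 and 132. All 4 sites had summits 4 to 28 bp apart. Chromosome 1 held a site at chr1:193282179-193282629 with 257 and 132 fragments, and another at chr1:136390970-136391460 with 236 and 122. The last of the 8 were chr4:44982871-44983320, with 256 and 133 fragments, and chr2:158492347-158493049, with 232 and 126. The ratio at these 8 sites was 0.502 to 0.543, so all lay in the upper part of the band. Ranking by the fragments of both lists summed favours such ratios. Mid-ratio sites with 94 to 279 EBF1-wt fragments had a median ratio of 0.437, against 0.441 over all mid-ratio sites.

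Although their fragment ratios were nearly alike, these 8 sites with the most fragments differed in fold enrichment, the summit pileup over a local background. At chr2:25052047-25052532 EBF1-wt had a fold of 54.5 and EBF1-H240A one of 48.8, ranks 3 and 31 of the 2242 pairs. At chr4:44982871-44983320 they were 40.9 and 24.0, ranks 32 and 261, and at chr9:21069387-21069910 they were 37.1 and 22.2, ranks 61 and 306. EBF1-H240A had the higher fold at chr1:193282179-193282629, with 55.5 against 41.0, and at chr1:136390970-136391460, with 39.8 against 25.1. The local backgrounds, here in the pileup units of each list and not in fragments, differed in the same places. The chromosome 4 site had 3.0 for EBF1-wt and 4.59 for EBF1-H240A, and chr1:136390970-136391460 had 5.00 and 2.09.

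The middle of the mid-ratio sites, ordered by EBF1-wt height, had 69 EBF1-wt fragments. At chr2:154875839-154876103 EBF1-H240A had 25 fragments, at chr4:135208496-135208876 it had 30, and at chr5:135624802-135625546 it had 31. Their ratios of 0.362, 0.435 and 0.449 had counting intervals that overlapped widely, for example 0.220 to 0.580 and 0.284 to 0.696 for the lowest and the highest. The folds were 11.2 and 10.1, 14.5 and 9.41, and 13.7 and 11.1 for EBF1-wt and EBF1-H240A at these sites in that order.

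The sites with the fewest fragments were at chr2:17978171-17978360 with 24 EBF1-wt and 12 EBF1-H240A fragments, chr8:107868989-107869228 with 24 and 13, and chr5:115608703-115608896 with 25 and 13. Intervals of the ratio were wide at all 3, and at the first of them ran from 0.228 to 1.04. The chromosome 8 peaks shared 50 bp of 240 bp and 350 bp, and their summits lay 80 bp apart. Folds were 4.25 to 5.63 at the 3 sites.

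Counting error was wide compared with the band. On the log2 scale, the band spanned 0.73, and the counting standard error of a site's ratio had a median of 0.32 (range 0.15 to 0.51). The exact 95% interval of the ratio, which covers counting error only, lay wholly inside the band at 1 of the 1120 sites. That site, named here for its interval, was chr17:73766758-73767176, with 240 EBF1-wt and 106 EBF1-H240A fragments and a ratio of 0.442 (0.348 to 0.557). At 786 sites (70.2%) the interval reached past both ends of the band. Of the 1122 pairs outside the band, 953 (84.9%) had an interval that overlapped it, and 169 were clear of it, 64 below and 105 above. At this depth, counts alone could not place most mid-ratio sites inside rather than outside the band.

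**Figure D2:**
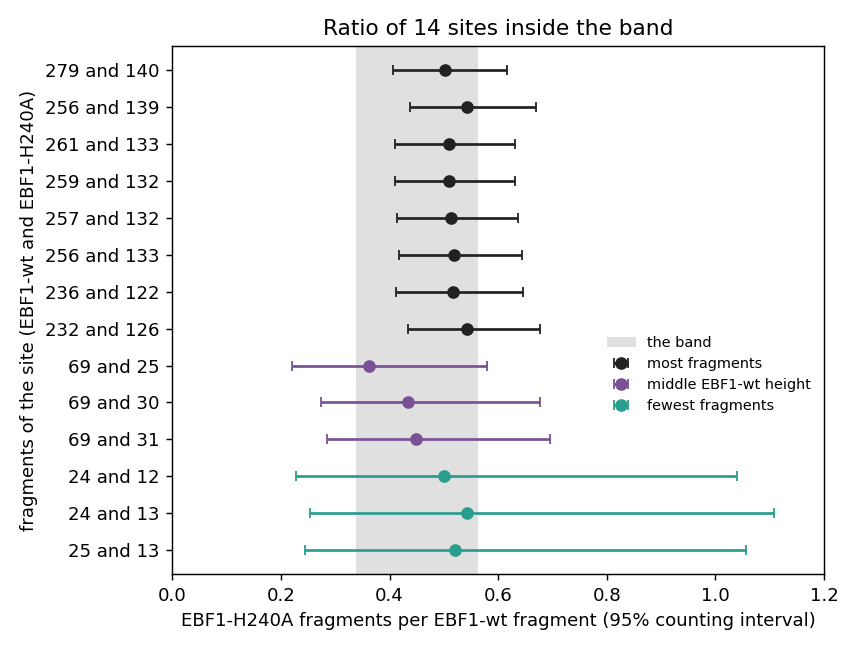
EBF1-H240A fragments per EBF1-wt fragment (x axis) at the 14 sites with the most, middle and fewest fragments, with exact 95% counting intervals, each row labelled with its EBF1-wt and EBF1-H240A fragments. Every interval reaches past the shaded band, and those of the sites with 24 or 25 EBF1-wt fragments reach above 1.

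Pairs on either side of the ends of the band had nearly the same ratio but differed in height. Just inside the lower end was chr17:73456989-73457262 with 65 and 22 fragments (pileup ratio 0.5335), and just outside was chr10:42546997-42547348 with 133 and 45 (0.5332). Just inside the upper end was chr7:19669755-19670118 with 98 and 55 fragments (0.8845), and just outside was chr3:121131129-121131354 with 48 and 27 (0.8864).

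The share of pairs that were mid-ratio sites varied with EBF1-wt height, as a description of the values the rule used. Pairs were ordered by EBF1-wt fragments and split into 10 equal groups. In the lowest group (21 to 36 EBF1-wt fragments) 88 of 225 (39.1%) were mid-ratio and 136 were above the band. The share was 63.8% at 44 to 52 fragments, 42.4% from 72 to 100 and 53.3% in the highest group (157 to 322). Below the band, shares went from 0.444% in the lowest group to 43.3% at 84 to 100 fragments and 12.9% in the highest. No paired EBF1-H240A peak had under 11 fragments, so a pair with fewer than 33 EBF1-wt fragments could not lie below the band. The 39 mid-ratio sites under 33 EBF1-wt fragments had ratios of 0.375 to 0.560.

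**Figure D3:**
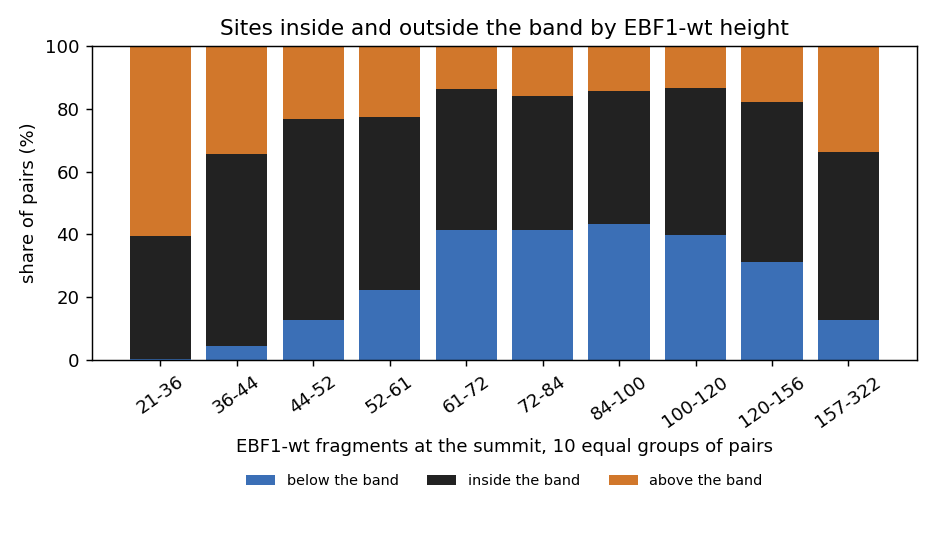
Share of the shared sites (y axis, percent) below, inside and above the band in 10 equal groups of the 2242 pairs ordered by EBF1-wt fragments at the summit (x axis). The share inside is 39.1% in the lowest group, 63.8% at 44 to 52 fragments and 53.3% in the highest group.

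The summits of both proteins were close together at the mid-ratio sites, as over all pairs. The rule did not use summit positions, but it paired only overlapping peaks, which limits how far apart summits can lie. The median distance was 21 bp (quartiles 9 and 39.3, highest 413), and 937 of 1120 sites (83.7%, 95% Wilson interval 81.4 to 85.7) had summits within 50 bp. Over all 2242 pairs the median was also 21 bp and the share 84.2% (82.6 to 85.6). Coinciding summits occurred below and above the band too, where the lowest distance was 0 bp, but their share of all pairs was not counted. Among the mid-ratio sites, summits coincided at 18 (1.61%). The tallest of these, picked after their values were seen, was at chr14:65962424-65962899, with 238 EBF1-wt and 102 EBF1-H240A fragments. It was followed by chr2:28477193-28477642, with 204 and 104, and chr7:29825294-29825907, with 176 and 96. The signed offset was centred near 0, with −1 bp at the median (EBF1-H240A minus EBF1-wt) and quartiles of −23 and 19.3 bp.

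Summits lay closer at taller mid-ratio sites. With 24 to 51 EBF1-wt fragments, 71.3% of 363 sites (66.5 to 75.8) had summits within 50 bp. With 52 to 93 fragments the share was 83.9% of 384 (79.8 to 87.2), and with 94 to 279 it was 95.4% of 373 (92.8 to 97.1). The same ranges were used for the other pairs. Below the band the share was 52.5% of 40 (37.5 to 67.1), 80.5% of 303 (75.7 to 84.6) and 85.8% of 218 (80.5 to 89.8). Above it, the share was 81.7% of 263 (76.6 to 85.9), 92.3% of 142 (86.7 to 95.6) and 97.4% of 156 (93.6 to 99.0). The mid-ratio share lay between the others in each range. Its interval overlapped that below the band in the lower and middle ranges, and that above in the middle and tallest. EBF1-H240A fragment numbers had the same order, with medians of 32, 58 and 107.5 in the tallest pairs. EBF1-wt medians there rose likewise, at 117.5, 131 and 152.5, but fell in that order in the lower and middle ranges. The part of either fragment number in the summit distance was not tested.

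**Figure D4:**
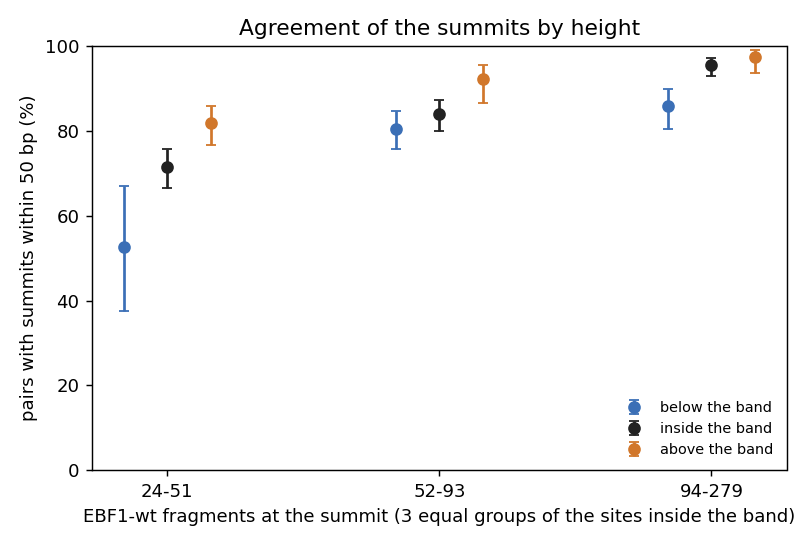
Share of pairs with summits within 50 bp (y axis, percent, with 95% Wilson intervals) by EBF1-wt fragments at the summit (x axis, 3 equal groups of the mid-ratio sites; the other pairs use the same cut points). Inside the band it is 71.3%, 83.9% and 95.4% from the lowest to the tallest group.

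At 32 mid-ratio sites (2.86%, 2.03 to 4.01), against 3.26% of all pairs, the summits were over 100 bp apart, so their ratio compares separate positions within 1 peak. The farthest apart, chosen for that distance, were chr17:34258470-34259259 (413 bp, 112 and 45 fragments), chr7:134758915-134759161 (372 bp, 54 and 19) and chr5:137065297-137066039 (334 bp, 117 and 40). Their peaks were broad in at least 1 list, with EBF1-wt widths of 790, 247 and 743 bp and EBF1-H240A widths of 983, 786 and 662 bp. The widest EBF1-wt peak of the mid-ratio sites, at chr17:35068614-35069793, spanned 1180 bp, against 719 bp for EBF1-H240A, and its summits were 33 bp apart.

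Peaks of both proteins had about the same width at the mid-ratio sites. The median was 332 bp for EBF1-wt (95% interval of the median 326 to 339) and 351 bp for EBF1-H240A (343 to 360), and the EBF1-H240A peak was the wider at 60.6% of sites, against 57.7% of all pairs. Outside the band, the protein with relatively more fragments had the larger median width. Below it, the medians were 361 bp for EBF1-wt and 310 bp for EBF1-H240A, and above it 308 and 395 bp. Width followed height within each list, with a Spearman's rho of 0.77 (EBF1-wt) and 0.71 (EBF1-H240A) over the mid-ratio sites, which share 1 library each. The shortest peaks of the whole lists were 190 bp (EBF1-wt) and 228 bp (EBF1-H240A), so widths are not on exactly the same scale.

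An even pileup ratio did not make the fold enrichments even. EBF1-wt had a median fold of 11.6 at the mid-ratio sites, and EBF1-H240A one of 10.0. The EBF1-H240A fold over the EBF1-wt fold had a median of 0.882, but ran from 0.268 to 2.94. In a band set in the same way on that fold ratio, which also holds 50.0% of all pairs, there were 742 of the 1120 mid-ratio sites (66.3%). A further 180 fell at or under its lower end and 198 at or over its upper end. The folds use the same pileups as the rule, so this is a description of how the choice of measure matters.

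The sites with the most uneven folds had unlike local backgrounds. Backgrounds are given here in the pileup units of each list, in which the lowest was 1.88 for EBF1-wt and 1.32 for EBF1-H240A. At chr3:57736560-57736914, with 71 and 26 fragments, EBF1-wt had a fold of 15.9 and EBF1-H240A one of 4.25, and the backgrounds 1.90 and 5.35. At chr5:137229977-137230420, with 105 and 41 fragments, the folds were 22.5 and 6.61 and the backgrounds 2.00 and 5.35. In the other direction, chr7:134851654-134851981, with 80 and 43 fragments, had folds of 6.47 and 19.0 and backgrounds of 7.0 and 1.32. At chr3:89576791-89577374, with 203 and 107 fragments, the folds were 18.5 and 46.7 and the backgrounds 6.00 and 1.32. These 4 sites were picked for their folds. Over all 1120 sites the fold ratio and the background ratio had a Spearman's rho of −0.89, which the fold's definition largely fixes once pileups are held in a band. The backgrounds of the lists, which draw on separate inputs, had a rho of only 0.24.

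**Figure D5:**
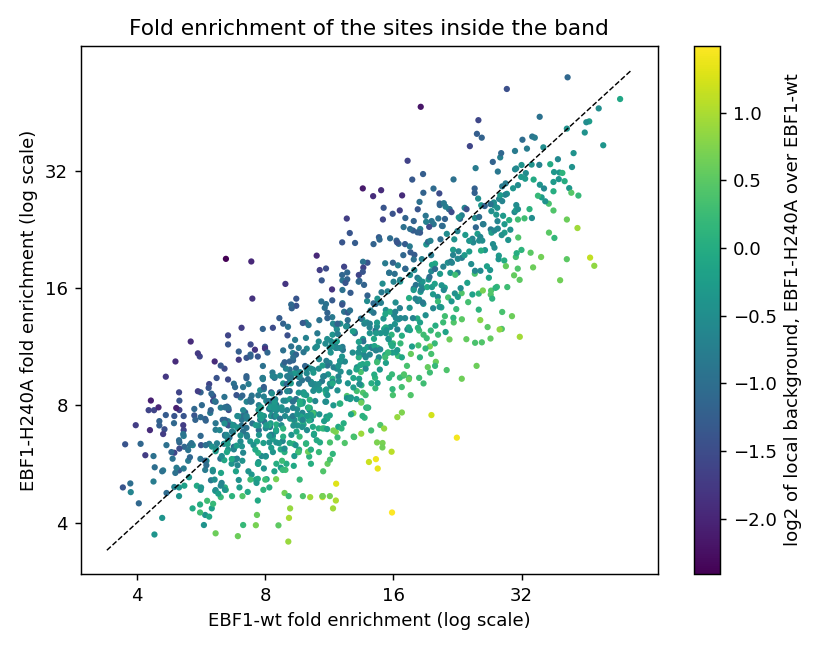
Fold enrichment of the 1120 mid-ratio sites for EBF1-wt (x axis) and EBF1-H240A (y axis), both on log scales, coloured by the log2 ratio of their local backgrounds. Sites above the dashed line of equal folds have the darker colours of a relatively low EBF1-H240A background, and the ratio of folds runs from 0.268 to 2.94.

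Local background at the mid-ratio sites was 2.85 at the median in the EBF1-wt list (95% interval of the median 2.66 to 3.0) and 1.84 in the EBF1-H240A list (1.74 to 1.92), each on the scale of its own list. Chromosome 17 stood higher in both lists, with 3.42 and 2.77 at its 82 mid-ratio sites against 2.66 and 1.74 at the 1029 on the other autosomes. Fragment numbers were also higher there, with medians of 83 and 35.5 against 68 and 29. Median folds were close, at 11.4 and 9.68 on chromosome 17 and 11.6 and 10.1 on the others.

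Every main chromosome held mid-ratio sites. The share of its pairs ran from 41.0% on chromosome 8 (48 of 117; 95% Wilson interval 32.5 to 50.1) to 57.4% on chromosome 18 (31 of 54; 44.2 to 69.7), and these intervals overlapped. Chromosome 11 had the most mid-ratio sites, 98 of 197 pairs, and chromosome X had 9 of 18. Chromosome X sites had the lowest median ratio, 0.364 against 0.423 to 0.459 on the autosomes, from 9 sites.

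Most mid-ratio sites stood alone, but so did most of all pairs, with an interval of the share that overlapped that of the mid-ratio sites. No other peak of either list had its summit within 20 kb at 644 sites (57.5%, 54.6 to 60.4), against 55.6% (51.5 to 59.7) of the pairs below the band and 49.6% (45.4 to 53.7) of those above. Another EBF1-wt summit lay within 20 kb at 451 sites (40.3%, 37.4 to 43.2) and within 2 kb at 104 (9.29%, 7.72 to 11.1), near the 41.7% and 10.7% of all pairs. For EBF1-H240A, 339 sites (30.3%, 27.6 to 33.0) had another summit of that list within 20 kb. That share was 32.3% over all pairs, 29.8% (26.1 to 33.7) below the band and 38.9% (34.9 to 43.0) above it.

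Of 351 adjacent pairs of shared sites within 20 kb, both were mid-ratio in 88 (25.1%), 1 of them in 169 (48.1%) and neither in 94 (26.8%). By the rule 50.0% of all pairs are mid-ratio and equal parts lie on each side, and the shares among neighbours are read as no more than that split gives. Among those 94, 47 had both sites on the same side of the band and 47 had 1 below and 1 above.

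Chaining mid-ratio summits within 20 kb gave 11 groups of at least 3, with 34 sites in all. Such groups were not counted among all pairs. The groups at chr7:28266581-28292334, chr11:88307326-88342653 and chr17:31177302-31211529 each had 3 mid-ratio sites among 4 shared sites. The largest, at chr15:63451526-63489929, had 4 mid-ratio sites with 100, 55, 48 and 117 EBF1-wt fragments and 39, 24, 25 and 57 EBF1-H240A fragments. All 4 shared sites in that stretch were mid-ratio, while 5 EBF1-wt peaks were called there. The tightest group, at chr5:137228881-137231469, held 3 sites in 2589 bp, with 183, 105 and 73 EBF1-wt and 76, 41 and 37 EBF1-H240A fragments. On the same chromosome, a group at chr5:137059830-137066039 had 171, 203 and 117 EBF1-wt and 58, 95 and 40 EBF1-H240A fragments. Its ratios were 0.339, 0.468 and 0.342, so the outer 2 sites were close to the lower end of the band.

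The group at chr2:28473370-28486032 joined the tall site with coinciding summits described above to lower sites on both sides. Their EBF1-wt fragments were 45, 204 and 53 and their EBF1-H240A fragments 22, 104 and 24. Folds at these 3 sites were nearly equal between the proteins, at 9.99 and 9.93, 32.6 and 30.5, and 9.66 and 9.73. At chr9:103373213-103392595, by contrast, 3 sites had folds of 9.29 and 7.51, 47.4 and 18.2, and 15.2 and 25.7. The fragment ratios of the chromosome 2 group were 0.453 to 0.510, and those of the chromosome 9 group 0.346 to 0.542.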

How the data were processed

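Each ChIP library has 1 peak list, and the inputs entered only through the peak caller. The submitters' processing notes name MACS2 2.1.0.20150731, HOMER 4.6, Bowtie2, Picard, SAMtools and bcl2fastq 1.8.4, with build mm9. For their settings and for duplicates, the sources used here give nothing. Per the file headers, the deposited values are a summit pileup (coverage signal), −log10 p-values and q-values, and a fold enrichment (ratio). They are the authors' own values for each peak. Deposited widths and 1-based positions are in bp, and were used as given.

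EBF1-wt pileups were divided by 0.635 to give fragments (98.3% of distinct values were multiples within 0.005); EBF1-H240A pileups were whole. Local background was computed as (pileup + 1) / fold − 1. Pairs were made 1 to 1 by largest overlap, which left 8 EBF1-wt and 6 EBF1-H240A overlapping peaks unpaired. Intervals are exact Poisson (counts), Clopper-Pearson (ratios of counts), Wilson (shares) and order-statistic binomial (medians), all 95%. The intervals of counts and of ratios cover counting error only, and reads amplified by PCR are not separate molecules. Wilson and median intervals treat the sites of 1 library per protein as independent, so they do not measure the spread between libraries. Python 3.11.15, numpy 2.4.6, pandas 2.3.3, scipy 1.17.1 and matplotlib 3.10.9 were used. On simulated peak lists, 7 of 7 quantities were recovered.

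Members, lists and settings were chosen with earlier results of these data known. Named sites are the 8 with the most summed fragments, 3 at the middle of EBF1-wt height, 3 with the fewest, those at the ends of the band, and others said to be picked for a value. Alternatives were other overlap rules, a q-value limit, fold in place of pileup, a narrower band, no chromosome 17, and a height limit. Genes, sequences and motifs under the sites were not analysed here, because the reference tables at hand are for GRCm38 and the peaks are on mm9.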

Additional observations from a re-analysis of the deposited data

How the results depend on the processing

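With 1 library per protein, the spread between libraries is unknown. Across 71 recomputed values, 17 left the 95% interval of the reported one (for the number of sites, changed by over 1.5 times) and 54 did not. Some of these moves follow from the settings themselves. A narrower band must hold fewer sites, a q-value or height limit takes out low peaks, and 2 kb is stricter than 20 kb. Some values that stayed were also fixed by the settings. The fold band must hold 1120 sites, and a narrower band keeps nearly the same median ratio. Other causes of the moves were not tested. The 1120 mid-ratio sites became 448 with a band from the 40th to the 60th percentile, where 36.8% had an EBF1-wt neighbour within 20 kb, in place of 40.3%; within 2 kb the share was 9.29%. With peaks limited to a −log10 q of 10 or more, median fragments were 82 and 37 (main 69 and 29.5), the ratio 0.453 (0.441), widths 352 and 378 bp, and the summit distance 18 bp (21). With at least 60 EBF1-wt fragments, a limit chosen after seeing the data, 691 sites had medians of 99 and 39 fragments, a ratio of 0.400, widths of 379 and 389 bp, an EBF1-H240A background of 1.94 (1.84) and a summit distance of 18 bp. The band then ran from 0.304 to 0.517, and 554 of the 691 were among the 1120. Under the fold ratio, 742 of 1120 were shared; with 50% reciprocal overlap, 1087 of 1087; with summits within 100 bp, 1081 of 1084; without chromosome 17, 1038 of 1043; and with the q-value limit, 808 of 822. The motif, promoter and gene-list settings were not run, for lack of mm9 sequence and annotation. No paired analysis was possible because there is 1 library per protein.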
